A study of Mus musculus with 18 samples.

Results

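The 10 genes described here encode the mouse H3K9 methyltransferases Suv39h1, Suv39h2, Ehmt1, Ehmt2, Setdb1 and Setdb2, the HP1 proteins Cbx1, Cbx3 and Cbx5, and the corepressor Trim28. They were chosen by name and not by a rule on a measured value, though with earlier results of these data known. All 10 have a row among the 23899 genes of the expression table, and all 10 passed the filter of at least 1 FPKM on average that left 11550 genes to test. FPKM scales the fragments of a gene by transcript length and library size, so levels can be compared between genes.

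The RNA-seq libraries were made from poly(A) RNA of a mouse leukaemia grown in culture with mouse interleukin-3, whose cells in all groups, mock included, carry Cas9 and MLL-AF9, an oncoprotein that joins KMT2A to MLLT3. There are 18 libraries in 6 groups of 3. Cells in 4 groups carried a guide RNA against Jmjd1c (e12.3 or e12.4, e20.1 or e21.1), directed at its jumonji or zinc finger domain. Cells of the fifth group carried a guide against Renilla, a luciferase that mouse cells lack, and the sixth group is labelled mock. The labels do not say which guide hits which domain, what mock received, or whether the libraries of a group came from separate cultures or clones, so the p-values cover no more than the spread between libraries as sequenced, which may be technical.

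Methyl groups on lysine 9 of histone H3 mark silent chromatin. Suv39h1 and Suv39h2 write H3K9me3 at pericentromeric heterochromatin, Ehmt1 and Ehmt2 (GLP and G9a) form a dimer that writes H3K9me1 and H3K9me2 in euchromatin, and Setdb1 is brought to retroelements by Trim28, which KRAB zinc finger proteins recruit. HP1 proteins bind the methylated tail through their chromodomain and in turn recruit methyltransferases. Jmjd1c belongs to the KDM3 family, which is counted among the H3K9 demethylases. Which methylation states Jmjd1c acts on, if any, was not measured here, so it is not set against any single writer.

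The estimated depth of the libraries was 20.7 to 182.1 M reads (median 32.05), so that 1 FPKM equals 41 to 364 reads for a transcript of 2 kb. Jmjd1c itself averaged 64.1 ± 9.24 FPKM over the 12 guide libraries, 78.3 ± 12.26 in Renilla and 74.5 ± 2.69 in mock, with a log2 fold change of -0.29 against Renilla (limma adjusted p = 0.19). RNA level does not measure editing, which these files do not hold. Of 10 markers of myeloid progenitor leukaemia all were present, each at 17.7 FPKM (Kit) or more in every library. The defining markers of T cells (Cd3e), erythroid cells (Epor), endothelium (Cdh5) and epithelium (Epcam) were listed at 0 in at least 1 library each and reached at most 0.19 FPKM (Epor). Other markers on the list were present: Cd3d, a T cell gene, stood at 0.59 to 2.11 FPKM in all libraries, and Gata1, an erythroid and megakaryocytic transcription factor, at 0.16 to 4.67 FPKM. Of 12 markers of other cell types 11 have a row, and their sum ranged over 12.9 to 23.9 FPKM in guide libraries, against 11.1 to 13.7 in Renilla and 10.4 to 13.6 in mock. Pecam1, an adhesion molecule of endothelium and also of leukocytes, made up most of that sum and rose (log2 fold change 0.70, limma adjusted p = 7.4e-04).

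Before the single genes, 4 libraries need naming. The libraries e12.3 replicate 3 and e21.1 replicate 3 stood apart in earlier results of these data. In them Ehmt2 was the highest and Setdb2 the lowest of their groups. They were also sequenced more deeply than most, with an estimated 66.8 M reads in e12.3 replicate 3 and more in e21.1 replicate 3. Mock replicate 1 had 182.1 M reads, and every remaining library had 43.4 M or less. Whether depth plays a part in these values was not tested. In e20.1 replicate 2 and Renilla replicate 1, several of the 10 genes reached their highest or lowest value of all 18 libraries. The summed FPKM of all genes was 807212 and 847581 in the third libraries of e12.3 and e21.1, 899692 in e20.1 replicate 2 and 812480 in Renilla replicate 1, against 726542 to 783854 in the other 14 libraries. Results that rest on these libraries are given with and without them.

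Promoter sequences are shown for Suv39h2, whose RNA fell with the guides, for its paralog Suv39h1, and for Trim28, the other gene called in any comparison. RefSeq (GRCm38.p6) gives 14 windows for the 10 genes, each from 250 bases before to 50 bases after a transcript start. Capitals mark the GC box GGGCGG and the CCAAT box, on either strand. The windows lie at chr2:3474937-3475236 (minus strand, Suv39h2), chrX:8074711-8075010 (minus strand, the first of 2 for Suv39h1) and chr7:13023902-13024201 (plus strand, Trim28).
Suv39h2: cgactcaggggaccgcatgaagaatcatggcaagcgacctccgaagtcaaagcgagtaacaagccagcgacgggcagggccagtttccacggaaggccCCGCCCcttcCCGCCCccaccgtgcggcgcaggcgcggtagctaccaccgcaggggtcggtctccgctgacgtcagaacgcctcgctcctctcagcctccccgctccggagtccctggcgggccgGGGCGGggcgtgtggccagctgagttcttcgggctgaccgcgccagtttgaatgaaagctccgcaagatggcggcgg
Suv39h1: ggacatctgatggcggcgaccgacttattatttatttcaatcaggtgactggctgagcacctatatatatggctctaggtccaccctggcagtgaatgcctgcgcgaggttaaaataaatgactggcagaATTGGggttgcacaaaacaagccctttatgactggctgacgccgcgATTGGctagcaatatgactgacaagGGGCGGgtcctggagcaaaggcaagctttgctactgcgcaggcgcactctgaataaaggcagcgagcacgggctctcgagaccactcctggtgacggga
Trim28: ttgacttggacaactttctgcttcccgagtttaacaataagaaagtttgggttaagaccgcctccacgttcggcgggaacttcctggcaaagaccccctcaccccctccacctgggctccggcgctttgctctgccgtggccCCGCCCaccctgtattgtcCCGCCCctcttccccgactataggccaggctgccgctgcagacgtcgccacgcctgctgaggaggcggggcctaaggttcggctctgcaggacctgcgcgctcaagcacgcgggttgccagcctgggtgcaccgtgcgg
The Suv39h2 window holds 3 GC boxes, 33 CpG dinucleotides and 68.3% G or C. The first Suv39h1 window, shown above, holds 2 CCAAT boxes and 1 GC box, with 15 CpG and 53.0% G or C. The second Suv39h1 window, not shown, holds 0 CCAAT boxes and 1 GC box, with 37 CpG and 71.0% G or C. The 2 Suv39h1 windows thus differ from each other, and the second is as rich in G or C as that of Suv39h2. The Trim28 window holds 2 GC boxes, with 23 CpG and 64.0% G or C. Over all 32851 RefSeq promoters of this length, 35.7% hold a GC box and 37.4% a CCAAT box, and the medians are 7 CpG and 52.7% G or C. An E2F motif (TTTCCCGC, TTTGGCGC or TTTCGCGC, either strand) stands in 1.8% of all windows and, among these 14, in the first window of Cbx3 alone. The E-box CACGTG (7.2% of all windows) was found for Ehmt2 and Cbx5, and the ETS motif CCGGAAG (8.9%) for Setdb1. A match describes the letters in a window and shows no binding.

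The levels of the 10 genes spread over a wide range. Averaged over the 18 libraries, Trim28 stood at 198 ± 21.9 FPKM (SD), above 95.1% of tested genes, and Cbx3 at 150 ± 20.9 FPKM. Next came Ehmt2 at 51.3 ± 7.07, Cbx5 at 50.7 ± 6.52 and Cbx1 at 49.8 ± 5.13 FPKM, which differ from each other by less than their spread, and Suv39h1 at 42.2 ± 2.19 FPKM. Setdb1 at 23.2 ± 2.05 and Ehmt1 at 22.3 ± 2.76 FPKM did not differ beyond their spread, nor did Suv39h2 at 10.8 ± 1.95 and Setdb2 at 9.80 ± 1.00 FPKM. Setdb2, the lowest of the 10, still stood above 34.3% of tested genes. Suv39h1 varied least over the libraries, with a coefficient of variation of 5.19%, and Suv39h2 most, with 18.1%.

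**Figure D1:**
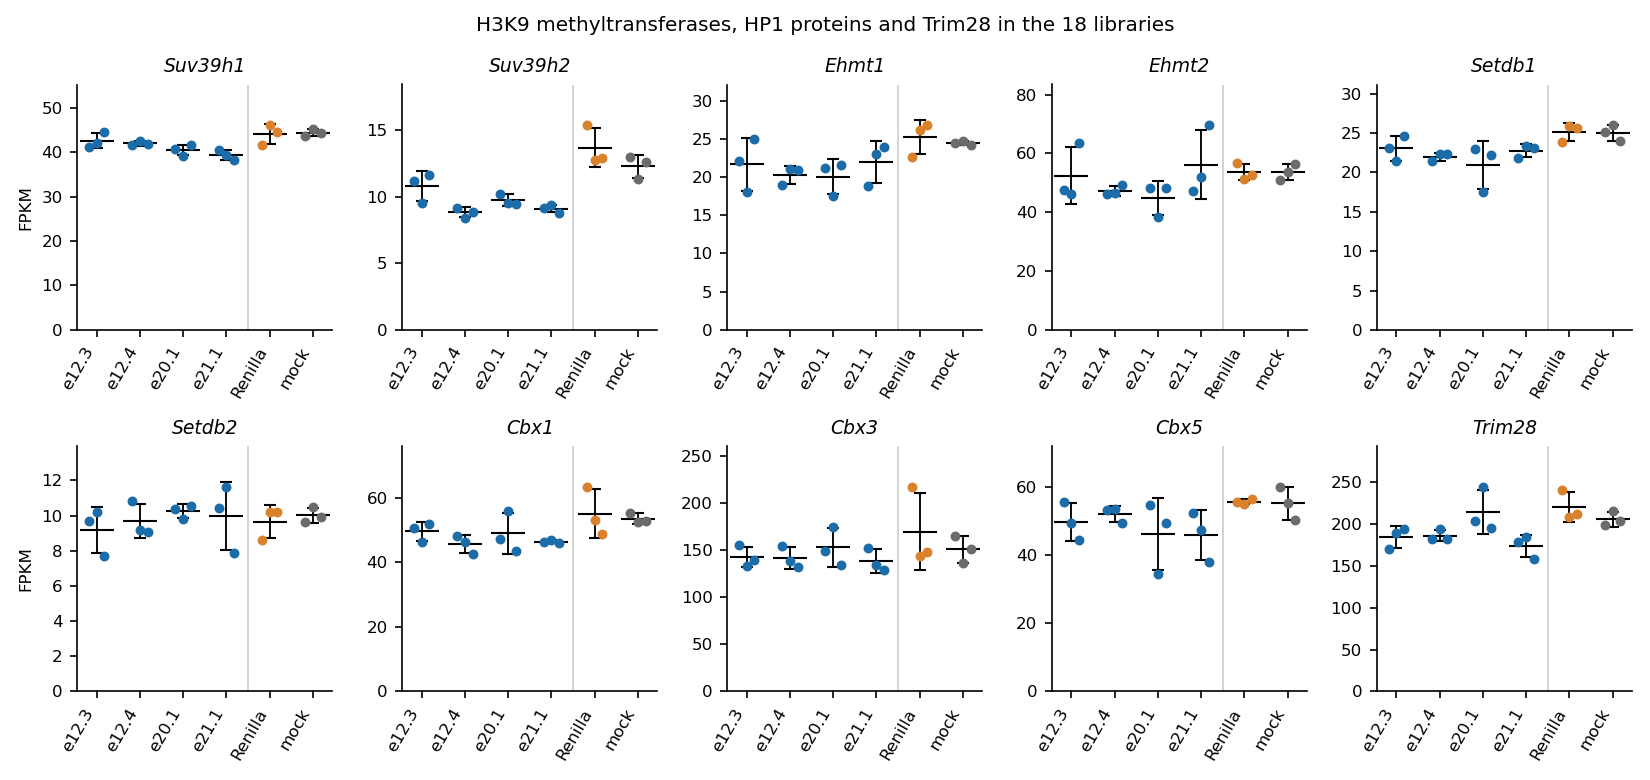
FPKM (y axis, from 0) of the 10 genes in each of the 18 libraries, by group (x axis), with the 4 Jmjd1c guides in blue, Renilla in orange and mock in grey; points are libraries, and black bars are the group mean ± SD (n = 3). All 12 guide libraries of Suv39h2, at 8.43 to 11.7 FPKM, lie below the 3 Renilla libraries, at 12.8 to 15.4 FPKM.

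With the 4 guides together, 1 of the 10 genes passed the test against Renilla and the same 1 passed it against mock: Suv39h2, which was lower in both. Limma called 3.21% of the 11550 tested genes lower against Renilla and 2.16% lower against mock, and a count of 1 is too small to set the 10 genes apart from that background. Of the 10 genes, 9 had a log2 fold change below 0 against Renilla and 10 against mock, beside 55.1% and 53.8% of all tested genes. Their median log2 fold change was -0.20 against Renilla and -0.15 against mock, beside -0.03 and -0.02 over all tested genes. At an unadjusted limma p under 0.05 there were 5 of the 10 against Renilla and 3 against mock, beside 24.4% and 21.3% of all tested genes, so that 3 of 10 is near the background. Exact two-sided permutation tests of single genes, unadjusted for the 10 genes, gave a p under 0.05 for 6 against Renilla and 5 against mock. The same tests gave such a p for 23.4% and 22.5% of all tested genes. Both comparisons share the 12 guide libraries, so they are not independent. In bulk RNA, fewer cells of a type and less RNA per cell cannot be told apart.

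**Figure D2:**
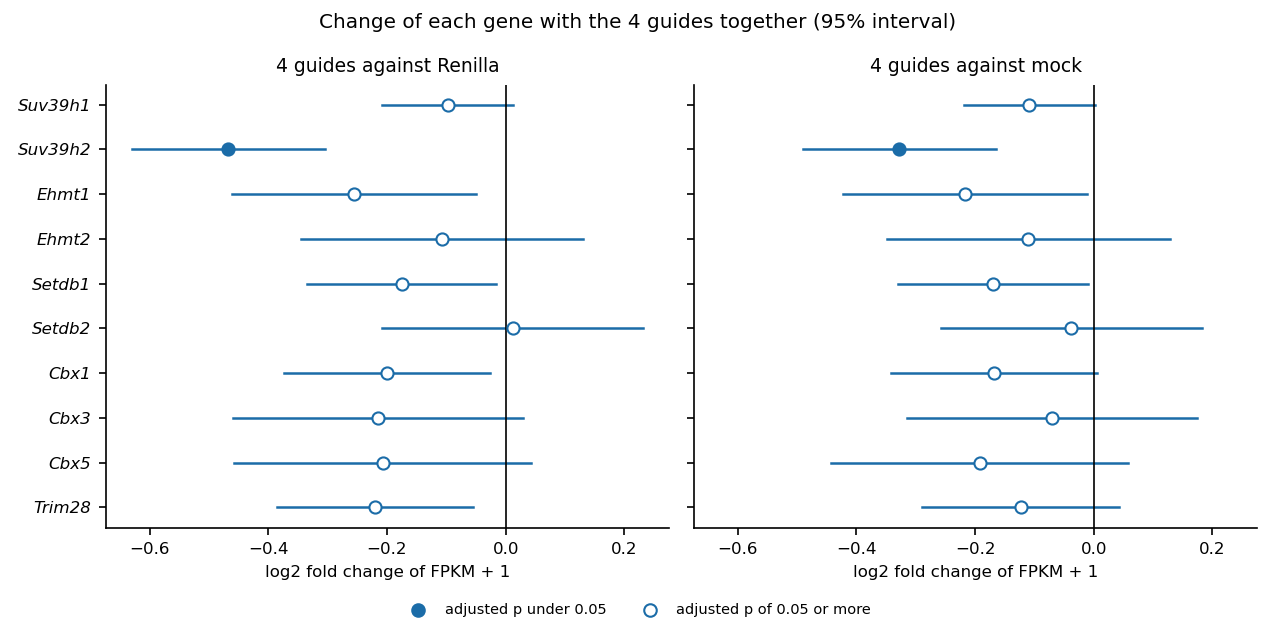
Log2 fold change of FPKM + 1 (x axis) of each gene with the 4 guides together, against Renilla (left) and against mock (right), with 95% intervals from limma; filled points have an adjusted p under 0.05. Suv39h2 is filled in both panels, at -0.47 and -0.33, and Setdb2 lies nearest to 0.

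Among the pericentromeric H3K9me3 writers, Suv39h2 fell and Suv39h1 did not pass the test. Suv39h2 (ENSMUSG00000026646.16, GRCm38 chromosome 2, 3455815-3475031, minus strand) was measured at 11.2, 9.52 and 11.7 FPKM in the e12.3 libraries, 9.18, 8.43 and 8.89 in those of e12.4, 10.2, 9.53 and 9.47 in those of e20.1 and 9.17, 9.39 and 8.81 in those of e21.1. In Renilla it stood at 15.4, 12.8 and 12.9 FPKM, and in mock at 13.0, 11.3 and 12.6 FPKM. All 12 guide libraries were below the lowest Renilla library, and 11 of 12 were below the lowest mock library, the exception being e12.3 replicate 3. All guide libraries lay below all Renilla libraries in 2.98% of tested genes, below all mock libraries in 3.41% and below all 6 control libraries in 1.59%. The shares of tested genes with 11 of 12 or fewer guide libraries below the controls were not computed. Such counts, here and for the other genes, are a description without a background.

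The Suv39h2 mean was 9.63 ± 0.967 FPKM over the guides (n = 12), 13.7 ± 1.47 in Renilla and 12.31 ± 0.882 in mock (n = 3 each), so that it fell by 29.7% against Renilla and by 21.8% against mock. Its log2 fold change was -0.47 against Renilla (SE 0.08, limma adjusted p = 7.0e-04) and -0.33 against mock (SE 0.08, limma adjusted p = 0.012). An exact permutation test with 455 arrangements returned p = 0.0022 against Renilla, its smallest possible value, and p = 0.0044 against mock. The call against Renilla held in all 32 alternatives run (log2 fold change -0.52 to -0.38). The call against mock was lost without guide e12.4 (adjusted p = 0.068), mock replicate 1 (0.099) or mock replicate 3 (0.087), and held in the other 28 alternatives.

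Each guide gave a Suv39h2 mean below both controls. The group means were 10.8 ± 1.14 FPKM for e12.3 and 8.83 ± 0.375 for e12.4, then 9.75 ± 0.434 for e20.1 and 9.12 ± 0.294 for e21.1 (SD, n = 3 each). Against Renilla the log2 fold changes were -0.32 with e12.3 (adjusted p = 0.11), -0.57 with e12.4 (0.0014), -0.45 with e20.1 (0.011) and -0.53 with e21.1 (0.0021). Against mock they were -0.18 (adjusted p = 0.59), -0.43 (0.012), -0.31 (0.090) and -0.39 (0.020) in the same order of guides. Suv39h2 was thus called with 3 of 4 guides against Renilla and 2 of 4 against mock, and these comparisons share their control libraries. Limma called lower 0.173, 1.52, 1.06 and 2.45% of all tested genes against Renilla, and 0.121, 1.26, 0.909 and 1.35% against mock, again in that order. Exact tests of 3 against 3 libraries cannot give a p under 0.1 here. Suv39h2 did not pass the F test among the 4 guides (limma adjusted p = 0.98, unadjusted p = 0.075), which called 0% of all genes (238 at an unadjusted p under 0.05). Its highest and lowest guide means lay 0.26 apart on the log2 scale, so the test does not show that the guides are alike. Between mock and Renilla 0% of genes were called as well (127 of 11550 at an unadjusted p under 0.05), and Suv39h2 had a log2 fold change of -0.14. With 3 libraries in each control, the absence of calls does not show that mock and Renilla are alike.

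**Figure D3:**
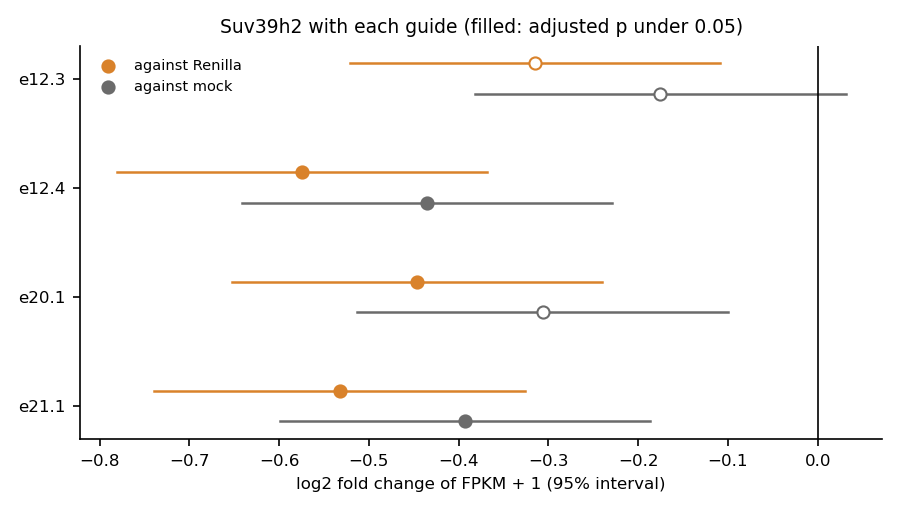
Suv39h2 with each guide (y axis): log2 fold change of FPKM + 1 (x axis) against Renilla (orange, upper point) and mock (grey, lower point), with 95% intervals from limma; filled points have an adjusted p under 0.05. The changes run from -0.57 with e12.4 against Renilla to -0.18 with e12.3 against mock, the only interval that reaches 0.

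Suv39h1 (ENSMUSG00000039231.18, chromosome X, 8061171-8074760, minus strand) ranged over 38.3 to 44.5 FPKM in guide libraries, with a median of 41.4. It stood at 41.6, 46.1 and 44.7 FPKM in Renilla and at 43.6, 45.3 and 44.4 in mock. Its groups overlapped, although 11 of 12 guide libraries were below the lowest mock library. The mean differed by -6.72% from Renilla and by -7.34% from mock, with log2 fold changes of -0.10 (SE 0.05, limma adjusted p = 0.27) and -0.11 (SE 0.05, adjusted p = 0.25). The exact permutation test, unadjusted, gave p = 0.029 and 0.0088. The FPKM ratio of Suv39h2 to Suv39h1 averaged 0.234 ± 0.0209 over the guide libraries and 0.295 ± 0.0403 over the 6 control libraries, with overlapping ranges (0.198 to 0.273 against 0.2499 to 0.370).

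Markers of the leukaemia cells changed in the same libraries. The sum of the 10 myeloid progenitor markers was 1182 to 1795 FPKM in guide libraries, against 2026 to 2160 in Renilla and 2049 to 2098 in mock. Without Mpo, the sum of the other 9 was 771 to 1095 FPKM with the guides, 784 to 952 in Renilla and 853 to 930 in mock, so the lower sum comes from Mpo. Of these 10 markers 2 were called higher and 1 lower against Renilla, and 1 higher and 1 lower against mock, with a median log2 fold change of 0.05 and 0.03. Over all tested genes 7.77% were called higher against Renilla and 6.84% against mock. Mpo, the granule enzyme myeloperoxidase, fell (345 ± 262 FPKM with the guides, 1206 ± 152 in Renilla, log2 fold change -2.09, limma adjusted p = 8.6e-04), and the leukocyte surface proteins Ptprc (0.37, adjusted p = 0.0099) and Itgam (0.73, adjusted p = 0.026) rose. Itgam was not called against mock (0.56, limma adjusted p = 0.10). Of 27 S-phase genes 1 was called higher, the cell cycle transcription factor E2f2 (23.9 ± 5.22 FPKM with the guides and 15.4 ± 1.90 in Renilla, log2 fold change 0.58), and 0 lower, with a median of 0.02. The part of these changes in the Suv39h2 result was not tested.

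Ehmt1 and Ehmt2, the dimer that writes H3K9me2, did not pass the test. Ehmt1 (chromosome 2, 24789928-24919614, minus strand) was at 22.1, 18.02 and 24.9 FPKM in the e12.3 libraries, 19.0, 21.0 and 20.9 in those of e12.4, 21.2, 17.5 and 21.5 in those of e20.1 and 18.8, 23.0 and 24.0 in those of e21.1. In Renilla it was at 22.6, 26.2 and 26.8 FPKM, and in mock at 24.5, 24.7 and 24.2. The groups overlapped, with e12.3 replicate 3 above all mock libraries and Renilla replicate 1 the lowest control. Means were 21.0 ± 2.34 FPKM with the guides, 25.2 ± 2.24 in Renilla and 24.4 ± 0.246 in mock, with log2 fold changes of -0.26 (SE 0.10, limma adjusted p = 0.11) and -0.22 (SE 0.10, adjusted p = 0.21). Without the third libraries of e12.3 and e21.1, Ehmt1 was called against Renilla (-0.30, adjusted p = 0.030) and not against mock (-0.26, adjusted p = 0.059).

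Ehmt2 (chromosome 17, 34898469-34914052, plus strand) was measured at 47.4, 46.3 and 63.7 FPKM in the e12.3 libraries, 46.1, 46.4 and 49.1 in those of e12.4, 48.2, 38.2 and 48.1 in those of e20.1 and 47.1, 52.0 and 69.5 in those of e21.1. Renilla libraries held 56.6, 51.3 and 52.7 FPKM, and mock libraries 51.1, 53.6 and 56.3. The third libraries of e12.3 and e21.1 were above every control, while 9 of the other 10 guide libraries were below every control. With all libraries the log2 fold change was -0.11 against each control (limma adjusted p = 0.61 and 0.65), and without those libraries -0.18 against Renilla (adjusted p = 0.098) and -0.19 against mock (0.10). The ratio of Ehmt1 to Ehmt2 was 0.423 ± 0.0357 over guide libraries and 0.465 ± 0.0439 over control libraries, with overlapping ranges.

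Setdb1, the methyltransferase that works with Trim28, and its relative Setdb2 were not called either. Setdb1 (chromosome 3, 95323525-95357202, minus strand) stood at 23.1, 21.5 and 24.7 FPKM in the e12.3 libraries, 21.4, 22.3 and 22.3 in those of e12.4, 23.0, 17.5 and 22.3 in those of e20.1 and 21.8, 23.4 and 23.0 in those of e21.1. Renilla gave 23.8, 25.9 and 25.7 FPKM and mock 25.1, 25.98 and 24.0. Of the guide libraries 11 of 12 were below all 6 controls, the exception being e12.3 replicate 3. How many of all tested genes reach such a count was not computed. Means were 22.2 ± 1.74 FPKM with the guides, 25.13 ± 1.15 in Renilla and 25.0 ± 0.993 in mock, with log2 fold changes of -0.18 (SE 0.07, limma adjusted p = 0.16) and -0.17 (SE 0.07, adjusted p = 0.20). Setdb2 (chromosome 14, 59402009-59440884, minus strand) averaged 9.78 ± 1.16 FPKM with the guides, 9.66 ± 0.923 in Renilla and 10.0 ± 0.441 in mock. Its log2 fold changes lay at 0.01 and -0.04, with 95% intervals of -0.21 to 0.23 against Renilla and -0.26 to 0.18 against mock. The lowest Setdb2 values of all libraries were 7.72 FPKM in e12.3 replicate 3 and 7.88 FPKM in e21.1 replicate 3, and the highest was 11.6 FPKM in e21.1 replicate 2.

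The corepressor Trim28 (chromosome 7, 12999114-13031035, plus strand) was called lower with 1 guide against Renilla. It was measured at 170, 190 and 194 FPKM in the e12.3 libraries, 183, 194 and 182 in those of e12.4, 203, 245 and 196 in those of e20.1 and 179, 184 and 159 in those of e21.1. In Renilla Trim28 was at 241, 208 and 213 FPKM and in mock at 199, 216 and 203 FPKM. Of the guide libraries 11 of 12 were below the lowest Renilla library and 10 of 12 below all controls, whereas e20.1 replicate 2 was above every other library. Over the 4 guides the mean was 190 ± 21.08 FPKM, against 221 ± 17.7 in Renilla and 206 ± 8.64 in mock, with log2 fold changes of -0.22 (SE 0.08, limma adjusted p = 0.087) and -0.12 (SE 0.08, adjusted p = 0.41). With e21.1 alone Trim28 averaged 174 ± 13.6 FPKM and fell by 0.34 on the log2 scale against Renilla (limma adjusted p = 0.040), and against mock the value was -0.24 (adjusted p = 0.18). That call was lost in 15 of 27 alternatives, with an adjusted p of up to 0.23. Suv39h2 and Trim28 were the only ones of the 10 genes called by limma in any comparison of a single guide with a control. Without e20.1 replicate 2, Trim28 was called with the 4 guides together against Renilla (-0.24, adjusted p = 0.025). Without Renilla replicate 1 it was not (-0.16, adjusted p = 0.36), nor without both of these libraries (-0.18, adjusted p = 0.14).

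The HP1 genes did not pass the test against either control. Cbx1 (HP1 beta, chromosome 11, 96789127-96808640, plus strand) had 42.5 to 56.0 FPKM in guide libraries, with a median of 46.6, against 63.3, 53.0 and 48.8 in Renilla and 55.4, 52.5 and 52.6 in mock. Its guide libraries lay below all mock libraries in 11 of 12 cases, the exception being e20.1 replicate 2. The log2 fold change was -0.20 against Renilla (SE 0.08, limma adjusted p = 0.14) and -0.17 against mock (SE 0.08, adjusted p = 0.25). Against Renilla it was -0.10 without Renilla replicate 1 (limma adjusted p = 0.59) and -0.13 without all 4 libraries (0.17). Cbx5 (HP1 alpha, chromosome 15, 103191544-103239816, minus strand) ranged over 34.3 to 55.5 FPKM in guide libraries, with a median of 49.5, against 55.4, 54.9 and 56.4 in Renilla and 59.96, 55.1 and 50.3 in mock. Against Renilla the Cbx5 groups overlapped through e12.3 replicate 1, and the log2 fold changes were -0.21 (SE 0.12, adjusted p = 0.30) and -0.19 (SE 0.12, adjusted p = 0.39). Without all 4 libraries they were -0.11 and -0.09.

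Cbx3 (HP1 gamma, chromosome 6, 51470360-51483704, plus strand) is the most abundant of the HP1 genes. It stood at 155, 134 and 140 FPKM in the e12.3 libraries, 155, 139 and 132 in those of e12.4, 150, 175 and 135 in those of e20.1 and 153, 134 and 129 in those of e21.1. In Renilla Cbx3 was at 218, 144 and 148 FPKM and in mock at 165, 137 and 151 FPKM. The Renilla mean of 170 ± 41.3 FPKM rests on replicate 1, and the guide mean was 144 ± 13.5 FPKM and the mock mean 151 ± 14.2 FPKM. The log2 fold changes were -0.22 (SE 0.11, adjusted p = 0.27) and -0.07 (SE 0.11, adjusted p = 0.79), and without all 4 libraries named above -0.03 and -0.08. The table lists 7 processed pseudogenes of Cbx3, which summed to 49.3 to 142 FPKM, with the highest single value of 141 FPKM for Cbx3-ps6. Reads of Cbx3 may have been split among them, so the Cbx3 level is uncertain.

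Of the summed HP1 FPKM, Cbx3 made up 59.9%, Cbx5 20.2% and Cbx1 19.8% on average in guide libraries. The shares were 60.1, 20.2 and 19.7% in Renilla and 58.1, 21.2 and 20.6% in mock. In e20.1 replicate 2 Cbx3 reached 66.0% and Cbx5 12.9%, and in Renilla replicate 1 they were at 64.7 and 16.5%. All of these shares leave out the pseudogene rows and are as uncertain as the Cbx3 level.

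**Figure D4:**
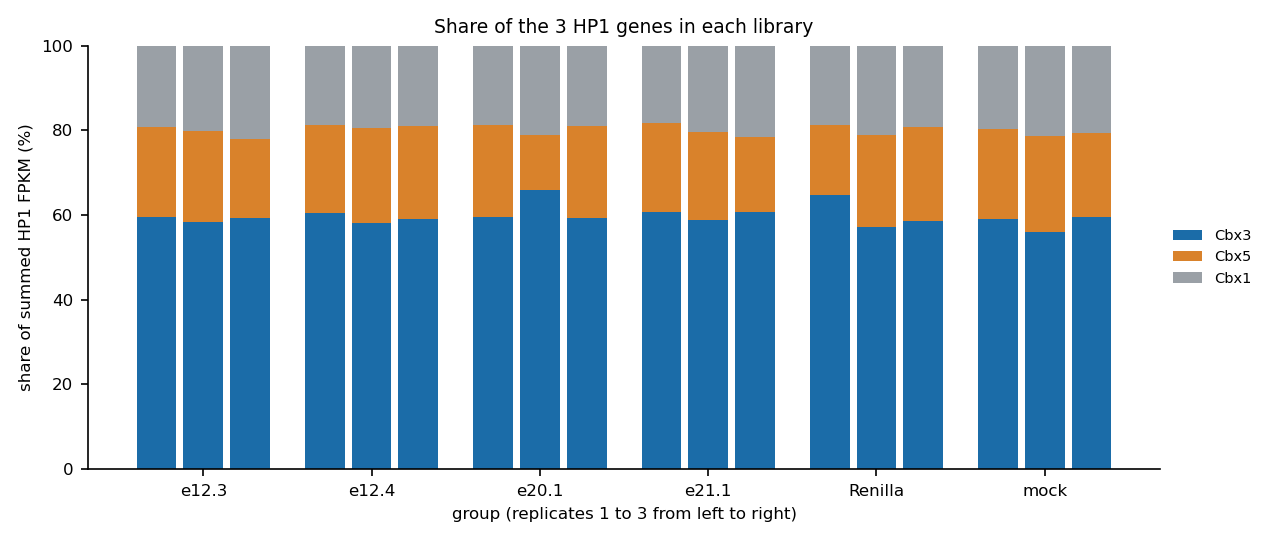
Share of the summed FPKM of the HP1 genes (y axis, percent) taken by Cbx3 (blue), Cbx5 (orange) and Cbx1 (grey) in each library, by group (x axis, replicates 1 to 3 from left to right). Cbx3 holds 56.0 to 66.0% in all libraries, and the narrowest Cbx5 band, 12.9%, is that of e20.1 replicate 2. The pseudogene rows of Cbx3 are not counted.

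The 4 libraries named above deviated from the others of their groups in different genes. In the third libraries of e12.3 and e21.1, Ehmt2 deviated by 0.43 and 0.48 on the log2 scale, Setdb2 by -0.33 and -0.44 and Cbx5 by -0.24 and -0.38. Of all tested genes, 27.1 and 26.2% deviated more than Ehmt2 there, 38.2 and 30.4% more than Setdb2 and 51.2 and 36.6% more than Cbx5. Trim28 went opposite ways in these libraries (0.11 and -0.19), as did Suv39h1 (0.09 and -0.06). In e20.1 replicate 2 Cbx5 deviated by -0.58, Setdb1 by -0.36, Ehmt2 by -0.32 and Ehmt1 by -0.27, while Cbx1, Cbx3 and Trim28 stood 0.29 to 0.30 higher. Renilla replicate 1 was higher in Cbx3 (0.57), Cbx1 (0.31), Suv39h2 (0.24) and Trim28 (0.19), and lower in Setdb2 and Ehmt1 (-0.22 each). Over all tested genes the median size of such a deviation was 0.23 to 0.27, and the fewest genes, 12.2%, deviated more than Cbx3 did in Renilla replicate 1. Suv39h2 deviated by -0.07 to 0.16 in the 3 guide libraries.

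**Figure D5:**
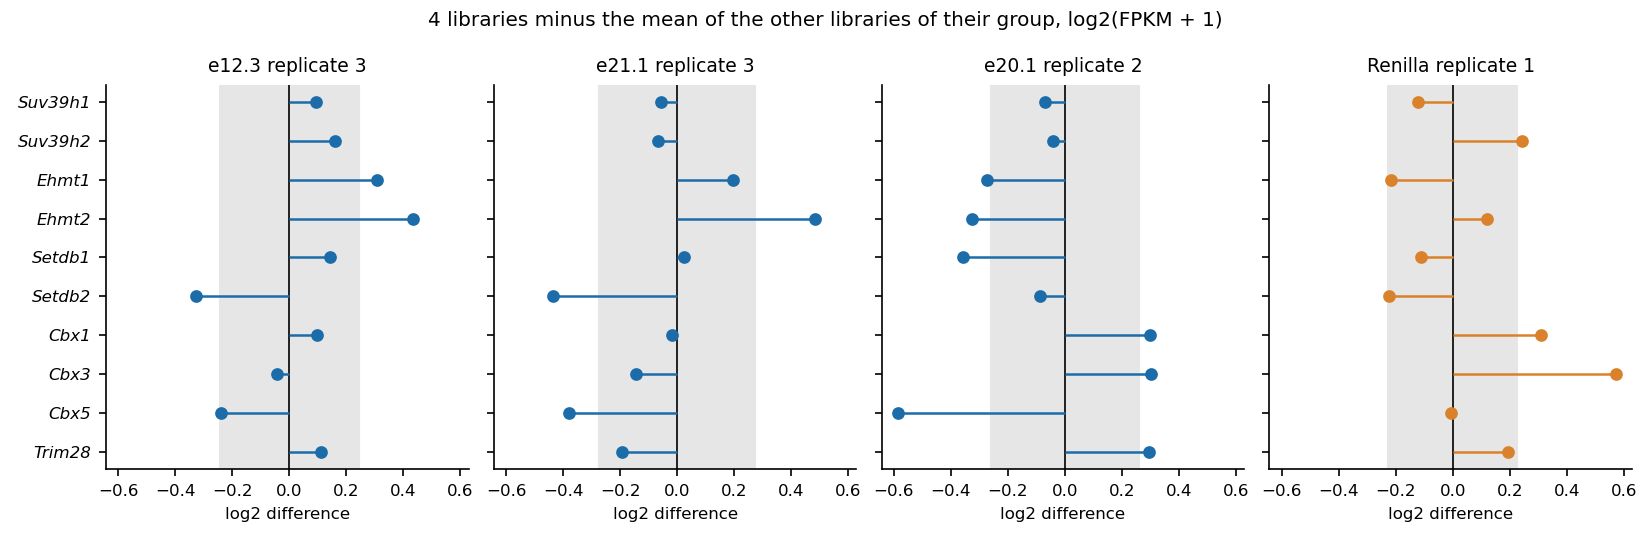
Difference in log2(FPKM + 1) (x axis) between 1 library and the mean of the other libraries of its group, for each of the 10 genes (y axis), in 4 libraries; the grey band is the median size of this difference over all tested genes (0.23 to 0.27). Ehmt2 is high and Setdb2 low in the third libraries of e12.3 and e21.1, and Cbx5 is low in e20.1 replicate 2.

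Without the third libraries of e12.3 and e21.1, 2 of the 10 genes were called against Renilla, Suv39h2 and Ehmt1, and 1 against mock, where limma called lower 7.08% and 6.25% of all tested genes. Without all 4 libraries 5 were called against Renilla and 6 against mock, with 7.08% and 12.1% of all tested genes called lower. Those called in both were Suv39h2 (-0.39 and -0.33), Ehmt1 (-0.35 and -0.24), Setdb1 (-0.20 and -0.15) and Trim28 (-0.17 and -0.14). Suv39h1 was called against Renilla (-0.14, limma adjusted p = 0.044) and Cbx1 (-0.20, adjusted p = 0.015) and Ehmt2 (-0.16, adjusted p = 0.024) against mock. The libraries e20.1 replicate 2 and Renilla replicate 1 were picked after the values of these 10 genes were seen, so the counts without all 4 libraries are a description.

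Correlation over the 18 libraries describes which of the 10 genes varied together, with groups, depth and the libraries named above in common. Pearson's r of log2(FPKM + 1) was highest for Ehmt1 and Setdb1 (0.89) and for Cbx1 and Cbx3 (0.82), and within groups these pairs were at 0.81 and 0.84. Without the 4 libraries named above, Ehmt1 and Setdb1 were at 0.94. Cbx1 and Cbx3 came to 0.62 there, below Suv39h2 and Setdb1 (0.85), so their high r rests in part on those libraries. Setdb2 and Ehmt2 were at -0.59 over 18 libraries and at 0.12 over the 14 without those 4. Among the 9093 genes that average 5 FPKM or more, those most like Suv39h2 were Tomm70a, a receptor of the mitochondrial outer membrane (r = 0.96), and Abi2, an actin regulator (r = 0.95). The genes most like Setdb1 were Rreb1 (0.96) and Mbtd1 (0.95), like Ehmt1 Ccdc77 (0.93) and Jarid2 (0.92), like Ehmt2 Lonrf1 (0.94) and Gpt2 (0.92), and like Suv39h1 Trim35 (0.93). For the HP1 genes they were Nae1 (0.96) and Psip1 (0.95) with Cbx3, Acaca (0.96) and Dicer1 (0.95) with Cbx5, and Cct2 (0.95) and Suclg1 (0.94) with Cbx1. Rpp38 (0.93) and Gnl3 (0.91) were most like Trim28. For Setdb2 the highest were Tespa1 (0.82) and Rbm48 (0.81), which came to 0.15 and 0.53 without the 4 libraries. For the genes named with the other members, r without the 4 libraries was 0.81 (Dicer1 with Cbx5) to 0.96 (Abi2 with Suv39h2).

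Few partners of these proteins passed the test. Of 6 tested partners of the methyltransferases 0 were called higher and 1 lower against Renilla (median log2 fold change -0.13), beside 3.21% of all tested genes called lower. A count of 1 is too small to set these partners apart from that share. The 1 called was Cdyl2, a chromodomain protein that binds methylated H3K9, at 5.003 ± 1.12 FPKM with the guides, 7.89 ± 0.610 in Renilla and 6.61 ± 0.0331 in mock (-0.59, limma adjusted p = 0.025). That call was lost in 6 of 32 alternatives, among them leaving out any 1 of the Renilla libraries (adjusted p = 0.060 to 0.11) and was not made against mock (-0.37, adjusted p = 0.19). Of the HUSH complex, which spreads H3K9me3 over transgenes and retroelements with Setdb1, 4 members were tested and 0 called by limma (0 at an unadjusted p under 0.05 against Renilla). Of 13 HP1 and heterochromatin partners, among them Chaf1a, Lbr and Atrx, and of 4 KRAB zinc finger proteins that recruit Trim28, 0 were called by limma, with 2 and 1 at an unadjusted p under 0.05 against Renilla. Their medians were -0.14, -0.16 and -0.18 against Renilla, with 12 of the 13 HP1 partners below 0, beside 55.1% of all tested genes. Against mock the medians were -0.0042, -0.10 and -0.17, with 2 of the 4 HUSH members and 11 of the 13 HP1 partners below 0, beside 53.8% of all tested genes.

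The enzymes that erase H3K9 methylation and those that methylate DNA were tested beside the writers. Of 10 tested H3K9 demethylases 1 was called higher and 0 lower against Renilla (median -0.04), and the counts against mock were equal. With the shares called higher given above (7.77% and 6.84% of all tested genes), 1 of 10 is close to the background. The 1 called was Kdm7a, a demethylase of H3K9me2 and H3K27me2, at 4.97 ± 1.38 FPKM with the guides, 2.12 ± 0.204 in Renilla and 2.26 ± 0.324 in mock (0.91, SE 0.15, limma adjusted p = 7.4e-04). Of 9 tested genes of DNA methylation 0 were called higher and 1 lower against each control. Over all tested genes 3.21% were called lower against Renilla and 2.16% against mock, and 1 of 9 is too few to set apart from these shares. The 1 called was Dnmt3b, a de novo methyltransferase, at 1.65 ± 0.301 FPKM with the guides, 2.52 ± 0.156 in Renilla and 2.42 ± 0.0514 in mock (-0.42, SE 0.10, adjusted p = 0.016). Dnmt3b was also called against mock (-0.38, adjusted p = 0.032), and its adjusted p against Renilla was 0.072 without Renilla replicate 1 and 0.084 without Renilla replicate 2. Whether Suv39h2 differs from these genes in its change was not tested.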

How the data were processed

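RNA was extracted with TRIzol, selected for poly(A) and made into strand-specific libraries with NEBNext kits, per the labels' protocols. The deposited values are FPKM, made by the authors; per the submitters' processing notes bcl2fastq 2.22.0.422, Salmon 0.13.0, DESeq2 1.22.1, R 3.5.3 and mm10 were used. A series table of 18 libraries was used, from which 15 single-library tables deviate by no more than 3.3e-06 FPKM. The files hold no counts, so no count test was run. Depth was estimated from the steps of low values in 1473 genes, of which 99.6 to 100.0% came out within 0.2 of a whole read.

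Values were tested as log2(FPKM + 1) with limma 3.58.1 (trend, R 4.3.3), in 1 model of 6 group means over the 11550 genes that average 1 FPKM or more, and an adjusted p (Benjamini-Hochberg, over all of these genes) under 0.05 makes a gene called. The 4 guides together weight each guide equally. Fold changes on this scale are understated for low genes. Single genes were also tested by exact two-sided permutation (smallest p 0.0022 for 12 against 3 libraries, 0.1 for 3 against 3). With 12 against 3, libraries were exchanged freely, without regard to guide or replicate number. Intervals and SD cover the spread between libraries. All 10 genes are named, and of the 9 other lists the genes called against Renilla, at most 4 per list, and Jmjd1c. The 2 most alike genes per member are named by Pearson's r, with some items not reported here. The members and lists were chosen with earlier results of these data known. Tables were made with Python 3.11.15, pandas 2.3.3 and numpy 2.4.6, and figures with matplotlib 3.10.9. The fits were tested on simulated data. Alternatives were pseudocount 0.1, no filter, 5 FPKM in 3 libraries, only the groups compared, upper-quartile scaling, the replicate number as a block, Renilla and mock together, and libraries or guides left out; leaving out e20.1 replicate 2 with Renilla replicate 1, and all 4 libraries that stand apart, was chosen after seeing the data.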

Additional observations from a re-analysis of the deposited data

How the results depend on the processing

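The count of these 10 genes called against Renilla, 1 with all libraries, was 2 without the third libraries of e12.3 and e21.1, 2 without guide e20.1, 2 with Renilla and mock together as control, 5 without all 4 libraries that stand apart, and 1 to 2 with 1 library left out. Against mock it was 0 without guide e12.4, 2 without e20.1 replicate 2 and Renilla replicate 1, 6 without all 4 libraries and 0 to 1 with 1 library left out. For single guides, leaving out 1 library gave 0 to 1 (e12.4 against mock, e20.1 against Renilla, e21.1 against mock) and 1 to 2 (e21.1 against Renilla). The counts without the third libraries of e12.3 and e21.1 were 1 for e12.3 against Renilla, e20.1 against mock and e21.1 against Renilla. With only the groups compared they were 3 for e12.4 against mock and 0 for e20.1 against Renilla and for e21.1 against either control. Without all 4 libraries they were 1 and 3 for e12.3 and e12.4 against Renilla and 4 and 1 for e12.4 and e20.1 against mock. Without e20.1 replicate 2 and Renilla replicate 1 they were 0 and 1 for e20.1 and e21.1 against Renilla and 2 for e21.1 against mock. The shares of all genes called lower in these single-guide settings are not given here, so the counts are a description without a background. For e12.4 against mock, the calls over all genes also rose in both settings, far above the 748 of the main fit. The counts of 3 and 4 there thus do not set the 10 genes apart from a general rise in calls.

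Over all genes 1268 were called against Renilla and 1040 against mock. These counts were 2082 and 1866 without the third libraries of e12.3 and e21.1, 2209 and 2980 without all 4 libraries, 2109 against Renilla and mock together, and 815 to 1499 and 582 to 1273 with 1 library left out, lowest without Renilla replicate 1 and without mock replicate 2. Exact tests with p under 0.05 numbered 3 to 6 against Renilla and 2 to 5 against mock with 1 library left out.

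The libraries were not treated as paired, since the labels give replicate numbers no meaning and 26 of 45 pairs with the same number, not all, correlated above 0.1 in their deviations (-0.25 to 0.76, median 0.12; other numbers -0.58 to 0.37, median -0.04). Yet 17 of 18 libraries correlated best with one of their own number, a hint from the data and not from the design. With the replicate number as a block, 1 of the 10 genes was called against each control, 1 with e12.3 against Renilla and 1 with e20.1 against mock, and all genes called were 1809 and 1460. Setdb2 changed sign against Renilla without guide e20.1 (-0.0107), with Renilla and mock together (-0.0129), without e20.1 replicate 2 and Renilla replicate 1 (-0.0548), and without 4 single libraries (-0.0619 to 0.0495 over all libraries left out in turn), and against mock without the third libraries of e12.3 and e21.1 (0.0257) and without all 4 libraries (0.0329), none of them called. The cause was not tested. With 3 libraries per group and changes of this size, a p that misses the threshold does not show that a gene stayed the same.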
